A study of Ovis aries with 4 samples.

Results

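SPP1 (osteopontin, ENSOARG00000002590) and SERPINB1 (ENSOARG00000002311) are 2 of the 20150 genes counted in single cells of the sheep mammary gland, and 2 of the 774 that carry a symbol. They were picked by name, with it known from the same data that both stood high in luminal epithelium and lower there in late lactation. Their levels across cell types and their luminal difference between stages are therefore given as a description, without a test. Osteopontin is a secreted acidic phosphoprotein that binds cells through RGD-recognising integrins, and it is an abundant component of milk. SERPINB1 is a clade B serpin, a protease inhibitor that stays mostly inside the cell and is best known for trapping the serine proteases of neutrophil granules, such as elastase, cathepsin G and proteinase 3. LTF (lactoferrin, ENSOARG00000008620), an iron-binding whey protein of luminal cells, served as the contrast gene. The tissue came from 4 lactating ewes, 1 droplet library each. The title labels are LH for 2 ewes and LL for the other 2. The design text names peak and late lactation; LL is its abbreviation of late lactation, and LH was taken as peak lactation by elimination. No treatment, breed or age is given for either group.

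The libraries held 5955 to 12733 barcodes and 28015149 to 65339993 unique molecular identifiers (UMIs, each counting 1 captured transcript), with 2693 to 3294 UMIs per barcode at the median. After removal of doublet calls and of barcodes with over 20% mitochondrial UMIs, 5569 and 8657 cells remained in LH and 11343 and 10034 in LL. Pairs of libraries shared 15 to 39 cell barcodes, at most 0.384% of the smaller library.

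Cells were gated on the UMIs of marker genes. Luminal cells had at least 2 UMIs of EPCAM plus CLDN4, epithelial adhesion and junction genes. Macrophages had at least 2 UMIs of C1QA, fibroblasts at least 5 of DCN, T cells at least 1 of CD3E, and a comparator gate at least 1 of EDNRA, the endothelin A receptor of contractile cells. The cell names below stand for these gates. Cells that passed several gates were left out, which removed 26.0% and 10.2% of luminal cells in LH replicates 1 and 2 and 6.35% and 4.23% in LL replicates 1 and 2. The luminal gate held 260, 1969, 796 and 2175 cells in the order LH 1, LH 2, LL 1, LL 2, an order used for all lists of 4 values below. CLDN7, a junction gene that the gate did not use, stood at 434 to 612 CPM (counts per 1000000 UMIs) in luminal cells and at no more than 56.7 CPM in any other of these 5 gates. In luminal cells the caseins CSN2 and CSN3 stood at 0, 0.224, 42.8 and 8.06 CPM and at 1.97, 5.33, 637 and 6.99 CPM. LALBA (alpha-lactalbumin) was at no more than 4.71 CPM there, and PAEP, a whey protein gene, at 702, 746, 2931 and 3277.5 CPM. Casein transcripts were thus scarce in both LH ewes, which were taken as peak lactation. The secretory state of the luminal cells was not tested. MRC1, a macrophage receptor, was at 200.3 to 371 CPM in the C1QA gate and at no more than 2.33 CPM in the other 4. The DCN gate held only 29 cells in LH replicate 2, so it was not tested between stages.

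SPP1 was carried mainly by luminal cells. Summed over the gate it stood at 3853, 5137, 1142 and 1369 CPM, and the gate held 73.2%, 79.6%, 80.9% and 91.1% of all SPP1 UMIs of the kept cells. The T cell gate, used as the level that free RNA can give although activated T cells can make osteopontin, had 12.8, 138, 9.64 and 24.3 CPM. Luminal cells thus exceeded T cells 37.3-fold to 302-fold within an ewe. LH replicate 2 had the highest T cell level by far, and its fibroblast gate was likewise high at 317 CPM, against 11.7, 14.0 and 15.6 CPM in the other 3 libraries. Fibroblasts had SPP1 at 0.918, 2.30, 1.46 and 0.641 times the T cell level of their own ewe, so they were not set apart from T cells.

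The share of cells with a SPP1 transcript gave the same order. With every cell thinned to 1000 UMIs, so that depth was equal, SPP1 was seen in 82.2% of luminal cells of LH replicate 1 (exact 95% interval 76.9 to 86.6), 87.5% of LH replicate 2 (86.0 to 89.0), 38.1% of LL replicate 1 (34.7 to 41.6) and 55.0% of LL replicate 2 (52.9 to 57.2). T cells gave 1.00%, 11.0%, 0.980% and 2.69%. Before thinning the luminal shares were 92.7%, 96.9%, 62.3% and 84.9%, and the T cell shares 4.04%, 25.2%, 2.28% and 5.55%. Median depth was 9768 to 14604 UMIs in luminal cells and 2352 to 3343 in T cells. The intervals cover counting error only.

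**Figure D1:**
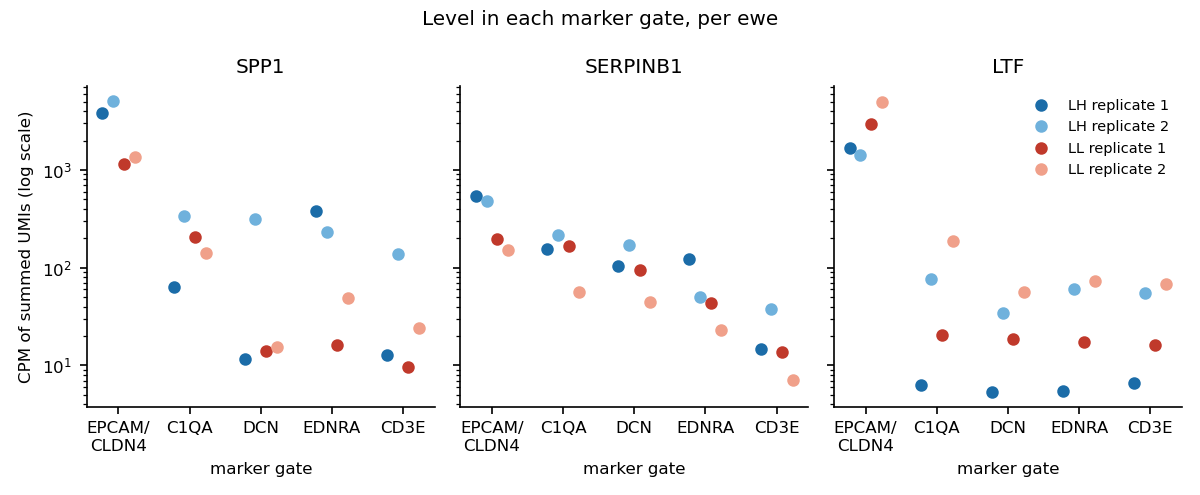
Level of SPP1, SERPINB1 and LTF (CPM of UMIs summed per gate, log axis) in 5 marker gates, with 1 point per ewe. SPP1 and LTF are far higher in EPCAM/CLDN4 cells than in the other gates. SERPINB1 in EPCAM/CLDN4 cells is only 1.18-fold to 3.44-fold above C1QA cells of the same ewe, which have 56.0 to 218 CPM.

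Much of the SPP1 of macrophages sat in few cells, except in LH replicate 2. Macrophages had 64.2, 336, 207 and 142 CPM, 2.44-fold to 21.5-fold above the T cells of the same ewe. Only 2, 6, 2 and 1 macrophage-gated cells had at least 10 SPP1 UMIs, yet they held 78.9%, 27.8%, 93.5% and 89.4% of the gate's SPP1. In LH replicate 2, where that share was lowest, SPP1 was seen before thinning in 41.7% of macrophages and 25.2% of T cells. Cells with at least 2 UMIs of EPCAM plus CLDN4 had already been left out of the macrophage gate, which fixed these 2 genes near 0. In LH replicate 1 and LL replicate 1 the SPP1-rich macrophages had no UMI of them, nor of LTF or CLDN7. PAEP was at 0 and 39.4 CPM in them, against 0 and 406 CPM in the remaining macrophages. The SPP1-rich cells had C1QA at 2726 and 5838 CPM, against 5216 and 4641 CPM in the remaining macrophages. MRC1 was lower in them, at 53.4 and 78.9 CPM against 376 and 292 CPM. FABP5, a fatty acid-binding protein, was at 3314 and 4220 CPM in them against 456 and 595 CPM in the remaining macrophages. LIPA, the lysosomal acid lipase, stood at 909 and 2879 CPM in them. The single such cell of LL replicate 2 differed, with C1QA at 915 CPM and FABP5 at 131 CPM against 282 CPM in the remaining macrophages. In LH replicate 2 the 6 cells had FABP5 at 1556 against 1121 CPM and also carried LTF at 766 CPM, and the other macrophages of that ewe had SPP1 at 249 CPM, against 13.8, 13.8 and 15.3 CPM in the other 3 libraries. A cutoff in raw UMIs favours deep cells. Median depth was 9355, 7430.5, 12676 and 7651 UMIs in the cells picked, against 2990, 1962, 5288 and 3314 in the whole macrophage gate. With 11 cells in 4 ewes, these are counts of single cells and were not tested, nor was the part of depth in them.

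Cells with IDO1 (indoleamine dioxygenase) together with IGFBP6 (an IGF-binding protein) were too few to compare. Only 62 cells had at least 1 UMI of each, 17 of them in no other gate and 14 also in the luminal gate. The 7 of LH replicate 1 that passed no other gate held 113 SPP1 UMIs (2344 CPM) and 19 of SERPINB1 (394 CPM), and no LTF UMI. The 6 such cells of LL replicate 1 held 2 UMIs of SPP1 and 21 of SERPINB1.

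SPP1-rich cells with little LTF were also seen in the EDNRA gate of LH replicate 1. The SPP1 level of the gate was 381, 232.5, 16.4 and 48.8 CPM. In LH replicate 1, 18 cells (5.84% of the gate) held 76.8% of it, with IGFBP6 at 1776 CPM, MMP7 (a matrix metalloprotease of epithelium) at 250.2 CPM, CLDN7 at 180.1 CPM and LTF at 10.0 CPM. The whole gate of that ewe, these cells included, had 926, 97.7, 48.1 and 5.43 CPM of these genes. Median depth was 9873 UMIs in the 18 cells and 3500 in the whole gate, and the part of depth was not tested. IGFBP6 was high in the gate of every ewe, at 602 to 926 CPM. LTF was low in T cells of LH replicate 1 as well, at 6.57 CPM. The ratio of SPP1 to LTF UMIs was 70.3 in this gate, against 2.30 in luminal and 1.95 in T cells of the same ewe. In LH replicate 2 the 13 such cells had LTF at 1328 CPM, and the ratio was 3.81, close to the luminal 3.63. In LL replicate 2 a single cell with 75 SPP1 UMIs held 48.4% of the gate's SPP1 and had no UMI of LTF or IGFBP6. SPP1-rich EDNRA cells thus carried LTF in LH replicate 2 and little or none in LH replicate 1 and LL replicate 2.

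SERPINB1 was spread more widely. Luminal cells had 539, 480.0, 195 and 151 CPM and macrophages 157, 218, 166 and 56.0 CPM. Luminal cells were therefore only 1.18-fold to 3.44-fold above macrophages, whereas for SPP1 the same ratio was 5.51 to 60.0. Fibroblasts had 103, 170.1, 94.2 and 44.4 CPM. T cells were lowest, at 14.6, 38.2, 13.7 and 7.08 CPM. Macrophages exceeded the T cells of their own ewe 5.70-fold to 12.1-fold and fibroblasts 4.45-fold to 7.10-fold, in all 4 ewes. LTF was in fibroblasts 0.612 to 1.15 times and in macrophages 0.964 to 2.76 times its T cell level. The part of free RNA in the SERPINB1 levels was not tested. EDNRA cells had SERPINB1 at 122, 50.4, 43.7 and 23.3 CPM, which was 1.32 to 8.41 times the T cell level of their own ewe.

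After thinning, SERPINB1 was seen in 16.0%, 18.9%, 14.9% and 5.26% of macrophages and in 1.66%, 2.74%, 1.74% and 0.672% of T cells. The macrophage transcripts were spread over many cells, since no macrophage-gated cell reached 10 SERPINB1 UMIs. Luminal cells held 59.4%, 75.4%, 40.8% and 83.9% of the SERPINB1 UMIs of the kept cells. The low share of LL replicate 1 went with 32.7% of its SERPINB1 in cells of no gate.

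Across the 5 gates and 4 ewes (20 points that share libraries), genes were ranked by how like that of SPP1 their level was. By Pearson correlation of log2 CPM over 338 genes with a symbol, ITGB6 ranked first (r = 0.92), followed by CLDN7 (0.88), PRDX2 (0.82), EPCAM (0.80), which is a gate gene, and MMP7 (0.78). SERPINB1 was the ninth (0.76) and LTF the eleventh (0.75). The genes most like SERPINB1 were DEGS1, a sphingolipid desaturase (0.92), POLR2G (0.86), ANXA2 (0.85), EIF6 (0.84) and IL18 (0.83), and LTF ranked only 70 of 338 (0.44). The median over all 338 genes was 0.04 for SPP1 and 0.12 for SERPINB1. These correlations are descriptions over gates that differ in depth and free RNA.

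The osteopontin receptor genes differed among themselves. Of 11 listed receptor genes (integrin chains and CD44), 3 had a symbol in the files. ITGAV, the alpha chain that pairs with several beta chains to bind RGD, was highest in macrophages at 741 to 1213 CPM and stood at 240.1 to 446 CPM in luminal cells. ITGB6, its epithelial partner, was at 269.8 to 469 CPM in luminal cells and at no more than 112.4 CPM in the other 4 gates. ITGB1 was present in every gate, at 225 to 873 CPM. Of the listed osteopontin-cleaving proteases, PLAU was at 383 to 534 CPM in macrophages and at 4.97 to 6.77 CPM in luminal cells, and MMP7 at 20.3 to 168 CPM in luminal cells and 0.905 to 7.38 CPM in macrophages.

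Within luminal cells, both members stood higher in LH and LTF higher in LL. On totals scaled by the trimmed mean of M-values (TMM), SPP1 reached 3733 and 5151 CPM in the LH ewes, against 1098 and 1471 CPM in the LL ewes. The means were 4442 ± 1003 and 1284 ± 264 CPM (SD, n = 2 ewes each), a log2 difference of -1.79. The LH ewes did not overlap the LL ewes.

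SERPINB1 reached 522 and 481 CPM in the LH ewes, against 187 and 162 CPM in the LL ewes, with means of 502 ± 28.6 and 175 ± 17.5 CPM (SD, n = 2 ewes each) and a log2 difference of -1.52. Its ewes agreed more closely within a stage than those of SPP1. LTF reached 1625 and 1421 CPM in the LH ewes, against 2847 and 5283 CPM in the LL ewes, a log2 difference of 1.42. In these 4 ewes LTF thus went opposite to both members. The members were picked with their difference known, and the share of all genes whose ewes do not overlap between stages is not given here.

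**Figure D2:**
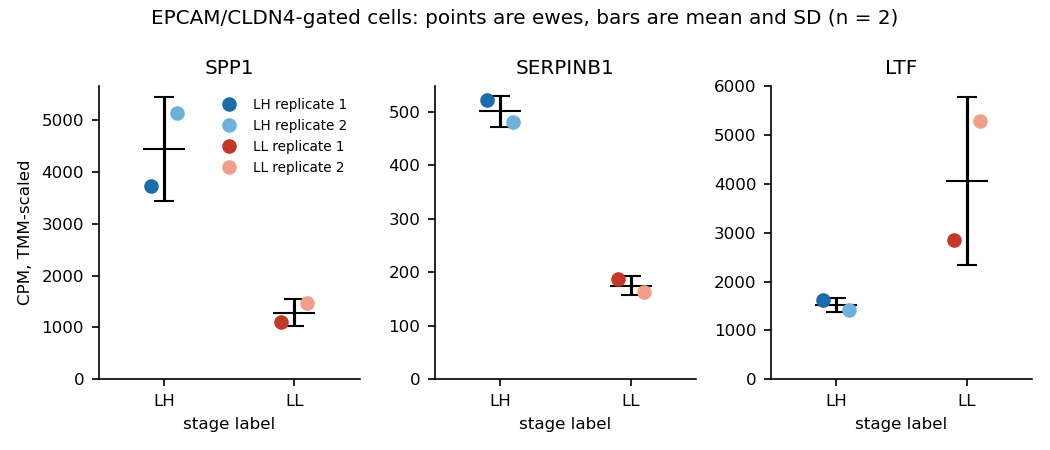
SPP1, SERPINB1 and LTF in EPCAM/CLDN4-gated cells (TMM-scaled CPM, linear axes from 0), with 1 point per ewe and bars for the mean and SD of 2 ewes. SPP1 and SERPINB1 lie higher in both LH ewes (3733 and 5151 CPM; 522 and 481 CPM) and LTF in both LL ewes.

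Outside the luminal gate the stage difference could be tested. With edgeR's quasi-likelihood test and Benjamini-Hochberg adjustment, 1 of 8365 genes passed an adjusted p of 0.05 in macrophages (0.012%), 1 of 9082 in T cells (0.011%) and 3 of 10767 in EDNRA cells (0.0279%), and neither member was among them. By DESeq2 the counts were 9, 19 and 41 genes (0.108%, 0.209% and 0.381%). In macrophages, SPP1 had a log2 difference of -0.22 (SE 0.64, edgeR adjusted p = 0.966) and SERPINB1 of -0.72 (SE 0.51, edgeR adjusted p = 0.833). The macrophage levels overlapped between stages for SERPINB1 (157 and 218 against 166 and 56.0 CPM) and for SPP1. The direction of SPP1 turned without LH replicate 2, to a log2 difference of 1.35, and without LL replicate 2, to 0.12. That of SERPINB1 ranged from -1.98 without LL replicate 1 to -0.14 without LL replicate 2.

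In EDNRA cells SPP1 had a log2 difference of -3.23 (SE 0.53), with an unadjusted p of 0.000939 and an adjusted p of 0.610 by edgeR's quasi-likelihood test, so it did not pass. It passed with DESeq2 (adjusted p = 6.3e-08). In edgeR fits that left out 1 library, and so had a lone ewe in a stage, it passed without LH replicate 1 (adjusted p = 0.0157), LH replicate 2 (0.0143) or LL replicate 2 (0.0414), but not without LL replicate 1 (0.256). Its log2 difference in these fits ran from -4.16 without LL replicate 2 to -2.64 without LL replicate 1. The LH levels were 381 and 232.5 CPM and the LL levels 16.4 and 48.8 CPM, without overlap. The share of all genes in EDNRA cells whose ewes do not overlap between stages is not given here. The luminal SPP1 level moved the same way between stages, and its part in the EDNRA values was not tested. SERPINB1 in EDNRA cells had a log2 difference of -1.29 (SE 0.51, edgeR adjusted p = 0.841), which ran from -1.86 without LL replicate 1 to -0.53 without LH replicate 1. In T cells SPP1 and SERPINB1 had log2 differences of -2.01 and -1.14 (edgeR adjusted p = 0.888 and 0.875). Without LH replicate 2, the library with the high T cell level, that of SPP1 turned to 0.42 and that of SERPINB1 was -0.40.

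The members were then compared cell by cell, in luminal cells thinned to 1000 UMIs. SPP1 and SERPINB1 were weakly associated within an ewe. Both were seen in 32.9% of cells of LH replicate 1, where independence would give 30.9%, and the ratio of observed to expected was 1.07, 1.03, 1.21 and 1.02 in the 4 ewes. This ratio has a low ceiling where most cells hold SPP1, as in LH. The Spearman correlation over 258, 1957, 795 and 2169 cells was 0.11, 0.048, 0.084 and 0.027. These values were all above 0, and all small in sparse counts. SERPINB1 was seen in 40.1%, 36.0%, 19.5% and 13.1% of cells with SPP1 and in 26.1%, 27.0%, 14.0% and 12.5% of cells without it.

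Summed over cells without thinning, the quartile with the highest SPP1 fraction had SERPINB1 1.29, 1.26, 1.51 and 1.16 times that of the lowest quartile. SPP1 itself ran from 586 to 8402 CPM between those quartiles in LH replicate 1 and from 70.5 to 3700 CPM in LL replicate 2. The median depth of the lowest quartile was below that of the highest in LH replicate 1 (9581 and 16030 UMIs) and close to it in LL replicate 1 (11156 and 11290 UMIs). A more than 10-fold range of SPP1 thus went with a SERPINB1 range of at most 1.51-fold. For SERPINB1 the lowest SPP1 quartile of either LH ewe (444 and 400.0 CPM) lay above the highest of either LL ewe (227 and 164 CPM). SERPINB1 was picked with its luminal stage difference known, so this order is a description only.

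**Figure D3:**
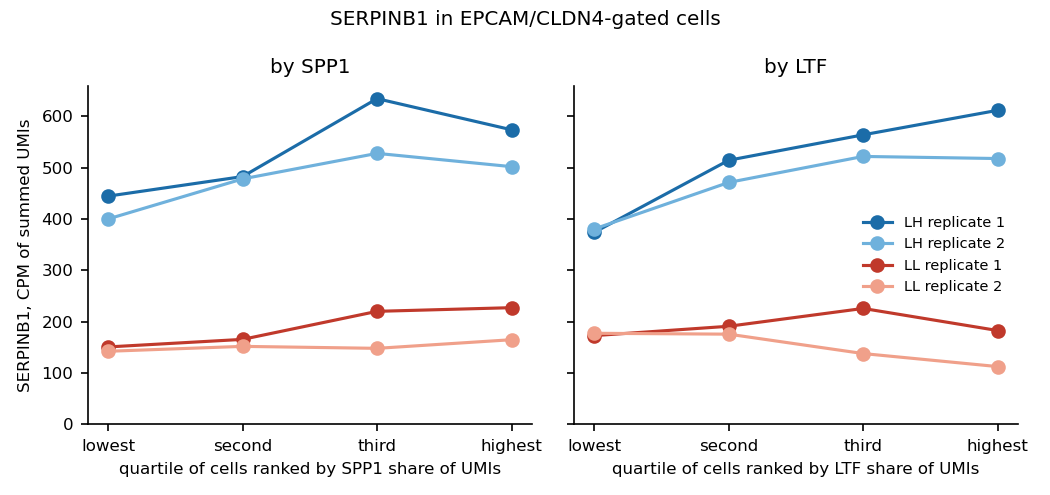
SERPINB1 (CPM of summed UMIs, linear axis from 0) in quartiles of EPCAM/CLDN4-gated cells ranked by their SPP1 fraction (left) or LTF fraction (right), with 1 line per ewe. The LH lines lie above the LL lines in every quartile, and in LL replicate 2 SERPINB1 is 0.633 times as high in the top as in the bottom LTF quartile.

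SPP1 and LTF, although opposite between stages, went together within each ewe. The Spearman correlation over thinned luminal cells was 0.35, 0.26, 0.24 and 0.22, and the cells with both were 1.12, 1.08, 1.35 and 1.08 times the number expected. Among 274 genes with a symbol, LTF had the highest mean correlation with SPP1, followed by CRYAB, FTH1, PAEP (beta-lactoglobulin) and NFIB, while SERPINB1 ranked 23. Cells of the highest LTF quartile had SPP1 at 5217, 7365, 1391 and 1629 CPM and those of the lowest at 1397, 3495, 123 and 936 CPM. SPP1 was thus higher in the highest than in the lowest LTF quartile of all 4 ewes. CLDN7 was higher there too, at 636 against 274, 615 against 552, 523 against 326 and 525 against 303 CPM, and its part in the SPP1 values was not tested. In thinned cells the correlation of SPP1 with CLDN7 was 0.13, -0.015, 0.060 and -0.032, and that of LTF with CLDN7 was 0.056, 0.026, 0.035 and 0.0997. The median depth of these quartiles was 16316 and 8608 UMIs in LH replicate 1 and 9512 and 8918 in LL replicate 2. The highest SPP1 quartiles also had more LTF than the lowest in every ewe, for instance 2438 against 594 CPM in LH replicate 1.

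SERPINB1 had no common relation to LTF. Its correlation was 0.092, 0.064, 0.0037 and -0.045. From the lowest to the highest LTF quartile SERPINB1 ran from 374 to 612 CPM in LH replicate 1 and from 380.5 to 518 CPM in LH replicate 2. It was 173 and 182 CPM in LL replicate 1, and 177 and 112.1 CPM in LL replicate 2. The order was thus upward in both LH ewes and downward in LL replicate 2. The genes with the highest mean correlation with SERPINB1 were ANXA2, ITGAV, SPP1, FOS and RPSA, none above 0.073.

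The balance between SPP1 and LTF in single luminal cells differed between the LH and LL ewes. It follows from the luminal levels above, where SPP1 was picked with its difference known and LTF went the other way. The shares below are therefore a description, and their intervals cover counting error over cells, not the spread between ewes. Among cells with at least 3 UMIs of the pair (230, 1849, 548 and 2014 cells), SPP1 was at least as high as LTF in 82.6% (exact 95% interval 77.1 to 87.3), 91.9% (90.5 to 93.1), 31.8% (27.9 to 35.8) and 18.6% (16.9 to 20.3). The median SPP1 share of the 2 genes' UMIs was 77.3%, 84.6%, 24.8% and 18.3%. Both transcripts were present before thinning in 80.9%, 92.5%, 82.3% and 89.2% of these cells. Among luminal cells thinned to equal depth, both were seen in 46.1%, 48.6%, 27.2% and 49.1%. How many cells held both thus depended on depth, and the part of free RNA in these shares was not tested. Cells with a SPP1 share below 10% made up 0.435% and 0.541% in LH and 33.9% and 33.0% in LL.

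**Figure D4:**
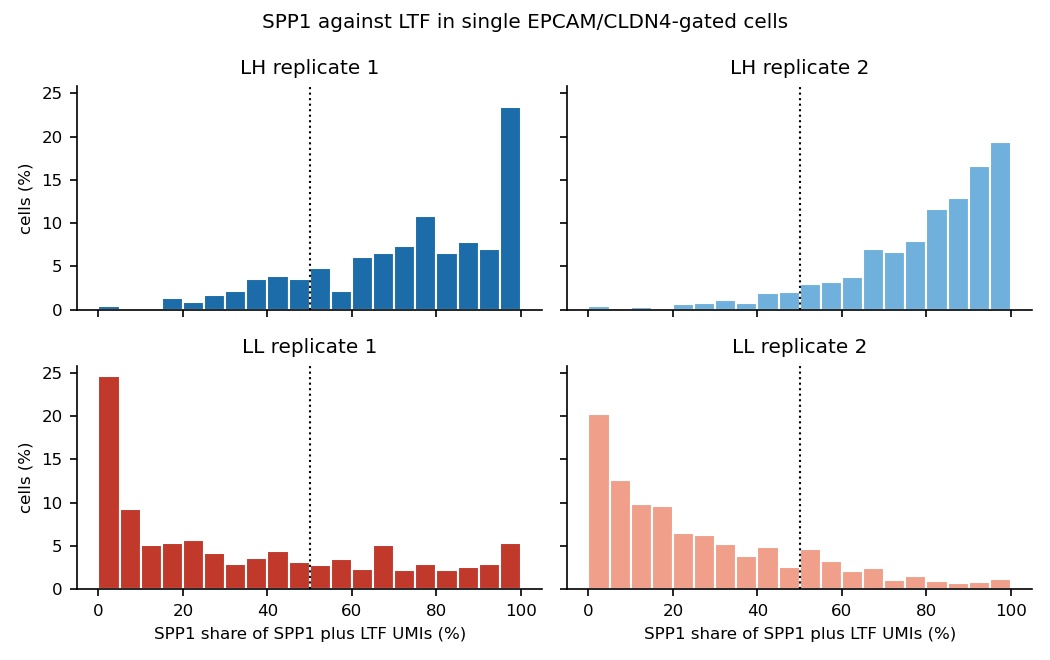
Share of SPP1 in the SPP1 plus LTF UMIs of single EPCAM/CLDN4-gated cells with at least 3 such UMIs (x axis, %; y axis, % of cells), 1 panel per ewe; the dotted line marks equal counts. LH cells pile up above the line (medians 77.3% and 84.6%) and LL cells below it (24.8% and 18.3%).

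Cells with SPP1 at least as high as LTF were then set against cells with LTF above SPP1 within each ewe. SERPINB1 was 542 against 579 CPM in LH replicate 1, 484 against 529 CPM in LH replicate 2, 256 against 187 CPM in LL replicate 1 and 190 against 145 CPM in LL replicate 2. The log2 ratios were -0.09, -0.13, 0.46 and 0.39, slightly negative in both LH ewes and positive in both LL ewes. LTF-dominant cells of either LH ewe lay above SPP1-dominant cells of either LL ewe. SERPINB1 was picked with its luminal stage difference known, so this order is a description only. An interaction of class and stage, added after these values were seen, called 6 of 10465 genes by edgeR (0.0573%) and 5 by DESeq2 (0.0478%). SERPINB1 was not among them, with a log2 interaction of 0.56 (SE 0.15), an unadjusted p of 0.0031 and an adjusted p of 0.611 by edgeR's quasi-likelihood test. Between stages SERPINB1 differed by -1.20 on the log2 scale within the SPP1-dominant class and by -1.74 within the LTF-dominant class.

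**Figure D5:**
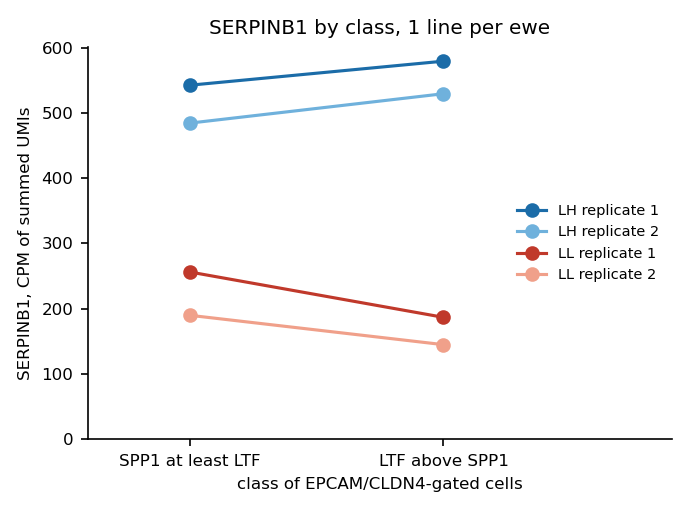
SERPINB1 (CPM of summed UMIs, linear axis from 0) in EPCAM/CLDN4-gated cells with SPP1 at least as high as LTF and with LTF above SPP1, 1 line per ewe. Both LH lines (484 to 579 CPM) lie above both LL lines (145 to 256 CPM) in either class.

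Other genes differed between the 2 classes. With the ewe as a block, edgeR's quasi-likelihood test called 406 of 10465 genes (3.88%), 221 higher and 185 lower in SPP1-dominant cells, and DESeq2 called 294 (2.81%). Without LL replicate 2 the edgeR count was 72, made up of 35 higher and 37 lower. Most called genes have an identifier alone. Of the 455 tested genes with a symbol, 12 were higher and 24 lower, and the median log2 difference over the 455 was -0.04. SPP1 and LTF defined the classes. Both are among the genes called by edgeR and by DESeq2, and their own calls are not results.

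Among genes with a symbol and at least 20 CPM, 9 were higher in SPP1-dominant cells, each in 4 of 4 ewes. They were CAV1 (caveolin), GHR (the growth hormone receptor), ARNT2, IFT27, IDH1 (cytosolic isocitrate dehydrogenase), TPM1 (a tropomyosin), SLC12A2 (a basolateral chloride cotransporter), GGTA1 and YAP1 (a transcriptional coactivator of the Hippo pathway). GHR was 163 against 65.9, 120.3 against 52.1, 40.9 against 31.6 and 37.0 against 15.7 CPM, a log2 difference of 1.04 (SE 0.14, edgeR adjusted p = 0.0019). CAV1 had the largest difference, 1.35 (SE 0.23, edgeR adjusted p = 0.0067), at low levels of 4.13 to 46.7 CPM. IDH1 was higher by 0.60 and SLC12A2 by 0.51 on the log2 scale.

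The 10 largest differences in the other direction were led by PAEP, the main whey protein of ruminant milk. It was 534 against 1582 CPM in LH replicate 1, 679 against 1678 in LH replicate 2, 3103 against 4143 in LL replicate 1 and 795 against 4098 in LL replicate 2. Its log2 difference was -1.41 (SE 0.22, edgeR adjusted p = 0.0036), lower in SPP1-dominant cells of all 4 ewes. PMP22, a growth arrest membrane protein, had a log2 difference of -1.19. The immediate early and growth-control genes BTG2, KLF4 and ZFP36 were lower by -0.78, -0.72 and -0.57, and CLDN4, which took part in the gate, by -0.64. TUBA4A, PDXK, KDR and XCL1 completed the set. XCL1, a lymphocyte chemokine, was lower in 3 of 4 ewes, and KDR is a receptor of endothelium. Both stood at 7.36 to 101.4 CPM, and the part of other cells' RNA in them was not tested.

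Listed gene groups gave few members with a symbol. Of 12 milk protein genes, 8 had a symbol and 2 besides LTF were tested between the classes, PAEP and CSN3, of which PAEP was lower. Of 10 luminal progenitor genes, 2 were tested and 1 was lower. The 3 osteopontin receptor genes, 3 processing genes, 2 matricellular genes and 6 other serpin or protease inhibitor genes tested held no call. Over all 10465 tested genes 3.88% were called, and of the 455 with a symbol 12 were higher and 24 lower. Groups this small can hold few or no calls at such shares, so nothing is read from their counts. No other clade B serpin and no target protease of SERPINB1 has a symbol in the files. SERPINB1 itself had a log2 difference of 0.03 (SE 0.11) between the classes over the 4 ewes, a mean over opposite values in LH and LL.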

How the data were processed

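The authors deposited UMI counts for each gene in each barcode, and these were taken unchanged. Cell Ranger made them, in release 7.2.0 per the file headers and 5.0.1 per the submitters' processing notes, which list STAR and Seurat 3.2.0 as well. The build of the genome was not given in the sources used here, so no coordinates are printed. Names came from the deposited files, in which 774 of 20150 genes have a symbol.

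Barcodes over 20% mitochondrial UMIs (13 genes) were removed, as were doublet calls (284 to 1297 per library) from a score against 2 simulated doublets per cell, at 0.8% per 1000 barcodes. UMIs were summed per library and gate for CPM. Gates of at least 50 cells in every library were tested with edgeR 4.0.16 in R 4.3.3 (quasi-likelihood, TMM, filterByExpr with a minimum count of 10, Benjamini-Hochberg adjusted p under 0.05); DESeq2 1.42.0 was the alternative. With 2 ewes per stage an exact permutation p cannot go below 0.333, so precision is that of the spread between ewes. Comparisons of classes had the ewe as a block. Joint detection and correlations used cells thinned to 1000 UMIs, leaving out 1 to 12 shallower cells per library; quartiles ranked cells by the unthinned fraction of UMIs. Shares have exact Clopper-Pearson 95% intervals.

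Members, gates, lists and tests were chosen with earlier results of these data known. Named genes are both members, LTF, the 5 genes most correlated with each member over gates and over cells, and up to 10 largest class differences per direction (adjusted p under 0.05, symbol, at least 20 CPM). Genes shown inside cells with at least 10 SPP1 UMIs, and endothelial transcripts in ungated cells, were picked after values were seen. Scripts were tested on simulated data.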

Additional observations from a re-analysis of the deposited data

Results flagged for a closer look

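The SERPINB1 ratio of SPP1-dominant to LTF-dominant luminal cells pointed one way in both LH ewes and the other way in both LL ewes. The log2 ratio was -0.0949 in LH replicate 1 and -0.128 in LH replicate 2, against 0.457 in LL replicate 1 and 0.391 in LL replicate 2. These ratios rest on 494 to 11710 SERPINB1 UMIs per class and ewe. The difference between stages was 0.56 on the log2 scale (SE 0.15) and did not pass over all genes, with an adjusted p of 0.611 by edgeR's quasi-likelihood test and 0.9999 by DESeq2. The classes had median depths of 15353 and 18409 UMIs in LH replicate 1, 10431 and 9007 in LH replicate 2, 10210 and 11033 in LL replicate 1 and 10105 and 10276 in LL replicate 2. The part of depth in the ratios was not tested.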

How the results depend on the processing

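The luminal stage differences kept their direction under all 13 alternatives each, at -2.02 to -1.54 for SPP1 and -1.62 to -1.42 for SERPINB1 (log2). Keeping cells that pass several gates moved the mean log2 ratio over ewes to 1.95 for SPP1 in luminal over C1QA cells (from 3.89), and for SERPINB1 to 1.82 in C1QA over CD3E cells (from 3.13) and 1.20 in DCN over CD3E cells (from 2.60). Keeping doublet calls gave 2.24 for the last. SPP1 in DCN over CD3E cells (0.25) turned to -0.35 with several-gate cells and ranged from -0.074 (without LH replicate 2) to 0.54 when 1 library was left out.

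The size of the correlations within cells changed with the depth setting and with the luminal gate. The mean SPP1 and SERPINB1 correlation of 0.066 became 0.12 at 2000 UMIs, 0.47 without thinning and 0.13 with a luminal gate of 1 UMI, where the ratio of observed to expected was 1.20. The SPP1 and LTF correlation of 0.27 became 0.20 at 500 UMIs, 0.35 at 2000, 0.59 without thinning and 0.37 with the gate of 1 UMI, where the ratio was 1.32. With classes 4 times apart the SERPINB1 log2 ratio over LL ewes was 0.63 (from 0.42), and 76 of 8007 tested genes were lower in SPP1-dominant cells. The LTF-dominant class then held only 5 cells in LH replicate 1 and 22 in LH replicate 2.

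Counts of genes called between stages moved widely. In C1QA, CD3E and EDNRA cells they were 1, 1 and 3, against 9, 19 and 41 by DESeq2 and 165, 212 and 230 without the low-count filter. With several-gate cells kept they were 0, 0 and 0. Leaving out 1 library gave 0 to 24 (highest without LL replicate 2), 4 to 43 and 1 to 201 (both highest without LH replicate 2), where the lone ewe of a stage is assumed to vary like the others. The title numbers pair the ewes in name only (correlation of deviations 0.033, -0.15 and -0.18), and the replicate block gave 9, 1 and 4 calls. The crossed replicate block, added after seeing the data, gave 0, 8 and 11. Between classes, 221 genes were higher and 185 lower, SPP1 and LTF included. DESeq2 gave 131 higher, and no filter 549 and 318. The fit with no replicate block called 0 and 1, and that 1 gene was LTF, which defined the classes. Leaving out 1 library gave 35 to 224 higher and 37 to 171 lower, both fewest without LL replicate 2.

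SPP1 in C1QA cells (log2 -0.22) turned to 0.13 with the replicate block, 0.077 with the crossed block and 0.12 without LL replicate 2, and ranged from -0.94 to 1.35 when 1 library was left out. In CD3E cells SPP1 ranged from -2.98 (without LH replicate 1) to 0.42 (without LH replicate 2), around a value of -2.01. Apart from the depth and filter settings, whose construction changes what is counted, the cause of these moves was not tested.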

Other observations

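Luminal cells with hardly any SPP1 or LTF were common in a single ewe. Cells with fewer than 3 UMIs of the pair numbered 30 of 260 and 120 of 1969 in LH and 248 of 796 and 161 of 2175 in LL. In LL replicate 1 they were not shallow, with a median of 11954 UMIs, whereas in the other 3 libraries the median was 5669 to 6378. Their SERPINB1 level was 295, 214, 162 and 125 CPM, in the order LH 1, LH 2, LL 1, LL 2.

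SERPINB1 also appeared in ungated cells with endothelial transcripts, a set chosen after values were seen. In LL replicate 1, 580 ungated cells with a UMI of SELP or SELE, adhesion receptors of activated endothelium, held 42.1% of the ungated SERPINB1, at 168 CPM. The other libraries had 8 to 12 such cells. Ungated cells with RELN, which lymphatic endothelium makes, had SERPINB1 at 160.1, 114.5, 141.5 and 56.3 CPM, above the T cells of each ewe. In the same cells SPP1 was 6.40, 423, 40.2 and 39.9 CPM and LTF 3.2, 47.3, 16.4 and 112.6 CPM.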
